A study of Apis mellifera with 9 samples.

Results

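Small RNA libraries for miRNA were made from the ovaries of worker honey bees (Apis mellifera), and the 3 libraries labelled with the molecule subtype miRNA are described here, out of 9 libraries in the series. The others are 3 RNA-seq libraries for mRNA and lncRNA and 3 circRNA libraries with the same pool numbers. Each pool held 40 ovary pairs dissected from workers of 1 colony, and the study kept 5 colonies whose queens were sisters. Workers emerged from brood kept at 34 °C and 80% humidity and were taken when they were 4 days old. All pools belong to 1 group without a treatment, a queen sample or another stage, so the comparisons made here are among miRNAs and between pools. The values come from pooled whole ovaries, in which fewer cells of a type and less RNA per cell cannot be told apart.

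A miRNA is cut from a hairpin precursor by the nucleases Drosha and Dicer, and the strand from the 5p or the 3p arm of the hairpin is loaded into an Argonaute protein. The seed, bases 2 to 8 of that strand, pairs with target mRNAs, which are then repressed. In insect ovaries miRNAs are known to act in stem cell maintenance, follicle cell migration and egg maturation, mostly from work in Drosophila and mosquitoes. Ovaries of worker bees normally remain undeveloped in the presence of the queen.

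The deposited tables listed 164 mature miRNAs from 159 precursors, of which 152 miRNAs were known and 12 were newly predicted by the authors. Listed reads came to 4772099, 7277025 and 6682028 in pools 1, 2 and 3. Levels are reads scaled to 1000000 listed reads (RPML), so that 1 read was worth 0.210, 0.137 and 0.150 RPML in pools 1, 2 and 3. Where 3 values are given for a miRNA they are pools 1, 2 and 3, and ± marks the SD over pools (n = 3). PCR reads without molecular identifiers are not independent molecules, and intervals and limits drawn from reads cover counting error only. Pool 1 stood apart in its listed reads, which were 77.8% of the library total behind the deposited RPM, against 89.7% and 88.6% in pools 2 and 3.

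Sequences were deposited for the newly predicted miRNAs. The 5 printed here are those with at least 100 reads in total, Novel_10 and Novel_13, and 3 chosen after their values were seen, Novel_4 for its closely paired hairpin and Novel_8 and Novel_7 for a shared seed. Capitals mark bases 2 to 8, the seed, and each strand is written 5′ to 3′.
Novel_10: cAUUAUGCuaagaauaugugguau
Novel_13: gGCCCGUAgugaccgguacgcg
Novel_4: aGAUAGAUaacucauagguacc
Novel_8: cACGCGGAagaacucgguucga
Novel_7: cACGCGGAaagacucgguucga

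The deposited hairpins of the first 3 are shown with the mature strand in capitals, since the folding energies given below were computed on them.
Novel_10 hairpin: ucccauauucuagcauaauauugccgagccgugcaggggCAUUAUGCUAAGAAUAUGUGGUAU
Novel_13 hairpin: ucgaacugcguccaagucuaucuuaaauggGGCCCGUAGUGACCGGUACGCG
Novel_4 hairpin: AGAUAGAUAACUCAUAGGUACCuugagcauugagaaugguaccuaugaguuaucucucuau

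The profile was led by miR-276, a conserved insect miRNA that acts in memory formation in Drosophila and in synchronous egg hatching in locusts. It stood at 438813, 560470 and 504717 RPML, which is 43.9%, 56.0% and 50.5% of all listed reads (50.1% ± 6.09). The 95% Wilson intervals were 43.8% to 43.9% in pool 1, 56.0% to 56.1% in pool 2 and 50.4% to 50.5% in pool 3, so the pools differed by far more than counting error. The next was miR-8, which controls body growth through the fat body in Drosophila, at 192107, 114454 and 117710 RPML, highest in pool 1. The growth and cell survival miRNA bantam, which also maintains germline stem cells in Drosophila, followed at 78041, 87882 and 89838 RPML, lowest in pool 1 on this scale and in pool 3 under TMM scaling, which weighs libraries by trimmed ratios between them. miR-317, a neighbour of miR-277 and miR-34 in insect genomes, came next at 25983, 39378 and 39947 RPML. These 4 miRNAs held the same ranks in every pool.

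**Figure D1:**
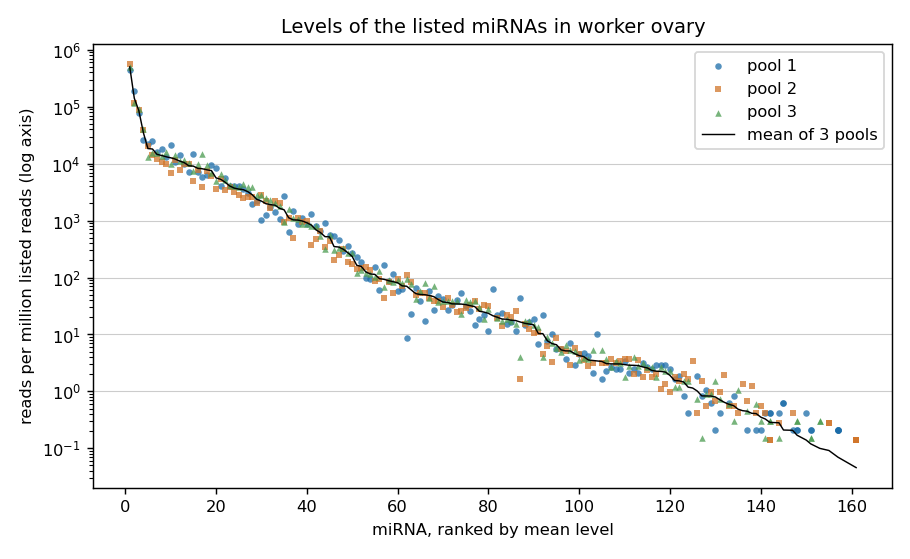
Level of each listed miRNA in RPML (log axis) against its rank by mean level. Symbols are the 3 pools, the black line is their mean, grey lines mark the class borders, and a pool with 0 reads has no symbol. The curve drops from 501333 RPML at rank 1 to below 10000 after 13 miRNAs.

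Reads were concentrated in few miRNAs. The first 2 by mean level held 64.3% ± 2.82 of the listed reads, the first 3 72.8% ± 3.02, the first 10 85.4% ± 2.07, the first 20 94.3% ± 0.657 and the first 50 99.8%. In pools 1, 2 and 3 it took 2, 1 and 1 miRNAs to reach 50% of the reads, and 38, 36 and 37 to reach 99%. The SD of the cumulative share was smaller over the first 20 than for miR-276 alone, but a share that nears the whole has little room to vary.

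Classes of level separated a small abundant set from a long rare tail. At a mean of 10000 RPML or more stood 13 miRNAs with 88.8% of the reads, and between 1000 and 10000 a further 25 with 10.3%. The 17 miRNAs between 100 and 1000 held 0.728%, the 37 between 10 and 100 held 0.148%, and the 34 between 1 and 10 held 0.0112%. Below 1 RPML stood 38 miRNAs, 30 known and 8 newly predicted, of which 14 had reads in every pool. No newly predicted miRNA reached 100 RPML.

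Most of the listed known miRNAs had reads in every pool. Each listed one had at least 1 read, so completeness over all known bee miRNAs cannot be read from this list. Reads were found in all pools for 136 of the 152 known miRNAs, and the 16 others had 1 to 10 reads over the 3 libraries together. In pools 1, 2 and 3 there were 151, 149 and 144 miRNAs with at least 1 read. A count of 0 allowed up to 0.629, 0.412 and 0.449 RPML in these pools, the level of 3 reads. Name numbers, which follow the order of naming, went with level. The 75 known miRNAs with other numbers had a median of 919 RPML and 99.4% ± 0.0675 of the reads, while the 19 numbered 3715 to 3791 had a median of 20.02, the 35 numbered 6000 to 6066 a median of 3.04 and the 23 numbered 9864 to 9895 a median of 0.798.

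The next 16 miRNAs after miR-317 stood between 5631 and 18426 RPML on average. Among those tied to metabolism and nutrition in other insects, miR-277, a regulator of branched-chain amino acid breakdown in Drosophila, had 22261, 20143 and 12873 RPML. miR-275, needed for blood digestion and egg development in Aedes mosquitoes, had 17833, 10554 and 13469 RPML, and its neighbour miR-305, which acts in gut stem cells in Drosophila, had 6349, 7425 and 9646. These differed in which pool was highest, pool 1 for miR-275, pool 3 for miR-305, and pool 1 for miR-277, or pool 2 with the deposited RPM or with the reads of miR-276 left out of the scaling.

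Among the developmental miRNAs, miR-10, whose gene lies in the Hox complex, had 24783, 14303 and 15263 RPML. miR-125, a member of the let-7 complex that times the change from larva to adult, had 14450, 7871 and 11076 RPML. Both were highest in pool 1. Of the miRNAs named for oogenesis, miR-184, which is required for egg formation in Drosophila, had 13318, 10045 and 16338 RPML, highest in pool 3.

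Among the miRNAs of sensory organs and epithelia, miR-9a, which keeps the number of sensory organ precursors exact in Drosophila, had 16018, 12249 and 15470 RPML. miR-263a, which protects bristle cells from death in Drosophila, had 21359, 6956 and 9837 RPML, and miR-31a had 14813, 4967 and 7440. The last pair was at least 2-fold higher in pool 1 than in pool 2. The 2 most abundant members of the miR-279 name family ranged 1.34-fold and 1.21-fold over pools. They were miR-279a at 10554, 11448 and 14175 and miR-279d at 9823, 9737 and 11747 RPML. miR-279 acts in border cells of the Drosophila ovary and in olfactory neurons.

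Of the remaining 5, miR-87 had 7184, 9960 and 10424 RPML, miR-306 had 7202, 7803 and 9804, and miR-190 had 9602, 6097 and 6968. miR-283 had 8320, 3587 and 4985 RPML and was highest in pool 1. The muscle miRNA miR-133 had 5852, 3959 and 14599 RPML and was the only one of the first 20 that was more than 2-fold higher in pool 3 than in pool 2. In all, 19 of the first 20 by mean were among the first 20 of each pool, and 21 miRNAs made up the first 20 of any pool.

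**Figure D2:**
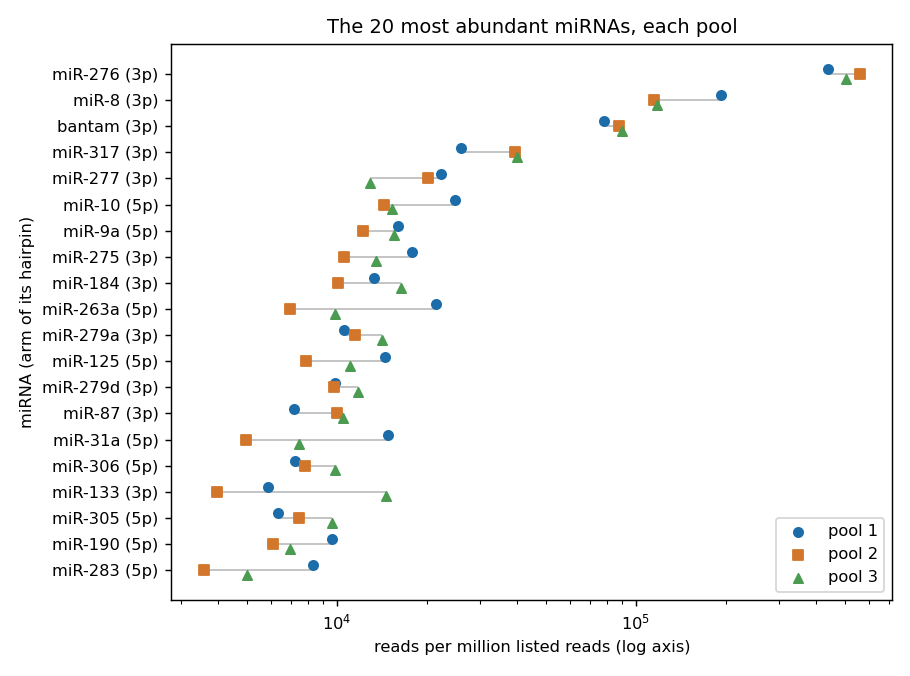
The 20 miRNAs of highest mean level, with the arm of the hairpin in brackets, against RPML (log axis). Symbols are the 3 pools and the grey line is their range. miR-276 lies at 438813 to 560470 RPML, and miR-263a, miR-31a, miR-133 and miR-283 span more than 2-fold.

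The profile was set beside miRNA lists named from other insects, which were chosen with earlier results of these data known. All 12 miRNAs listed for the ovary were found, with summed levels of 771888, 807903 and 775711 RPML. This sum is no test of the tissue label. It includes miR-276, miR-8 and bantam, the most abundant miRNAs here, which occur in many tissues. The more ovary-specific members were lower: miR-989, which guides border cell migration in Drosophila, had 627, 1134 and 1613 RPML, and miR-318, a follicle cell miRNA in Drosophila, had 14.9, 38.6 and 39.1. Both were lowest in pool 1. Of the other ovary members, miR-278 had 1078, 2052 and 1802 RPML, miR-100 had 5608, 3454 and 5124 and let-7 had 3650, 2522 and 4338.

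Markers of other tissues were present as well. The muscle miRNAs miR-1 and miR-133 were both found, miR-206 was not listed, and their sums were 6390, 4162 and 14908 RPML. miR-1 had 537, 203 and 310 RPML and was highest in pool 1, whereas miR-133 was highest in pool 3, so the pair did not move together. All 5 neuronal miRNAs were found, with sums of 2794, 1062 and 1060 RPML, and these were made up almost wholly by miR-927a at 2753, 952 and 936. The neuronal marker miR-124 went the other way, with 17.0, 52.6 and 80.2 RPML. So did miR-932, at 11.7, 25.4 and 15.6, and miR-927b, at 11.3, 31.5 and 27.7, so that 3 of the 4 at a mean of 10 RPML or more were lowest in pool 1. miR-7 was at 0.838, 0.55 and 0.299.

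Of the 5 gut and fat body miRNAs 4 were found, with sums of 24665, 20974 and 14303 RPML, and miR-14 was not listed. In that list miR-281 had 1492, 493 and 1104 RPML, miR-750 had 909, 337 and 323, and miR-1175 had 2.93, 1.37 and 2.24. The 10 sensory and epithelial miRNAs summed to 81905, 56916 and 72915 RPML. Of 7 embryonic and maternal names 2 were found, miR-92a at 88.0, 84.8 and 91.6 and miR-92c at 0.210, 0.55 and 0.299, and 14 of 22 other conserved names were found.

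In the RNA-seq libraries of the same pool numbers, 12 digestive serine protease genes summed to 437, 267 and 229 FPKM (fragments relative to exon length and depth) and 14 muscle contractile protein genes to 1709, 828 and 771 FPKM. None of the listed genes was at 0 in a pool. The share of all genes that were highest in pool 1 was not computed here, so these sums have no base to be read against. Pool 1 was the highest in the summed RNA markers of gut and muscle, in miR-1, miR-281 and miR-750, and in miR-263a and miR-31a, but not in miR-133. Of the sensory and epithelial list, miR-9a, miR-263b and miR-375 were also highest in pool 1 in RPML. In the same list miR-279a, miR-279b, miR-279c and miR-996 were lowest in pool 1. The neuronal miR-927a was highest in pool 1, while miR-124, miR-932 and miR-927b were lowest there. The part of other tissues in these miRNA values was not tested.

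The arm from which the listed strand came was taken from its position in the precursor. Of the 164 miRNAs 87 were 3p and 77 were 5p strands, and the 3p strands held 85.0%, 90.7% and 88.1% of the reads (87.9% ± 2.81). Without miR-276, itself a 3p strand, they still held 73.3%, 78.7% and 76.0% (76.0% ± 2.70). Above 1000 RPML there were 21 3p and 17 5p miRNAs, and in the first 20 there were 11 and 9. The median level was 34.2 RPML for 3p and 10.4 for 5p strands.

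Both arms were listed for 5 precursors, and in each the same arm held more reads in every pool. For mir-6001 the 3p strand held 6346, 2756 and 5296 reads and the 5p strand 49, 24 and 48, a 3p share of 99.2%, 99.1% and 99.1%. For mir-2765 the bias was the reverse, with 1, 5 and 3 reads from the 3p arm and 799, 322 and 452 from the 5p arm. The other 3 were closer to even, and the 5p strand led in each.

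mir-6005 had 203, 218 and 260 reads from the 3p arm and 272, 318 and 298 from the 5p arm. mir-3049 had 300, 509 and 545 reads from the 3p arm and 732, 628 and 675 from the 5p arm. mir-6000a had 16, 27 and 12 reads from the 3p arm and 32, 80 and 90 from the 5p arm. The 3p share of mir-3049 was thus lower in pool 1, at 29.1%, than in pools 2 and 3, at 44.8% and 44.7%, while that of mir-6000a was 33.3%, 25.2% and 11.8%.

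A chi-square test of homogeneity over libraries was possible for 4 of these precursors, and 2 of them (50%) passed an adjusted p of 0.05 (Benjamini-Hochberg). The adjusted p was 4.94e-16 for mir-3049 and 0.00984 for mir-6000a, against 0.178 for mir-6005 and 0.722 for mir-6001. The test compares these 3 libraries and holds counting error only. mir-3049 rests on pool 1, with an adjusted p of 0.963 without it, and mir-6000a rests on pool 3, with 0.595 without it.

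The length of the listed strand ranged over 19 to 28 bases. The 71 miRNAs of 22 bases held 59.9% of the reads and the 39 of 23 bases 29.5%, which includes miR-276 in the first set and miR-8 and bantam in the second. The 26 of 21 bases held 3.09%. The 11 of 24 bases held 1.47%. Strands over 24 bases were few, and they were miR-317 with 1 other at 25 bases (3.51%), miR-190 at 26 and miR-282 at 28. These are the lengths annotated in the tables, since the lengths of the reads are not analysed here.

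Every listed precursor had 1 genomic position, so no reads had to be shared among loci of the same name. The precursor names mir-1-2 and mir-87-2 carry a copy number, and the RNA-seq table lists a gene Mir87-1 499 bases from mir-87-2. The gene at the position of mir-1-2 is named Mir1-1 in that table. Reads of near-identical copies cannot be separated by name, so the levels of miR-1 and miR-87 are uncertain to that extent, as is that of miR-3747b, whose relative Mir3747a lies 544 bases away.

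The precursors were spread over the 16 linkage groups (LG, the bee chromosomes), while the reads were not. LG15, LG2, LG1 and LG3 carried 17, 16, 15 and 14 precursors and 1.79% ± 0.239, 1.57% ± 0.290, 1.61% ± 0.260 and 0.0928% ± 0.0197 of the reads. LG7, with 6 precursors, gave 50.2% ± 6.09 of the reads. miR-276, at 9788770 to 9788853 on its plus strand, made up 99.95% of that share.

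The same held for LG11, where miR-8 was 99.9% of a share of 14.2% ± 4.39, and for LG14, where bantam was 98.5% of 8.65% ± 0.648. Other linkage groups drew on several abundant miRNAs. LG5 gave 7.31% ± 0.808, of which miR-317 was 48.7%, and LG8 gave 3.23% ± 1.03, of which miR-125 was 34.7%. LG6 and LG12, with 3 and 4 precursors, gave 0.00960% ± 0.00232 and 0.000694% ± 0.000245. The 8 precursors on unplaced scaffolds gave 0.0640% ± 0.0383, at 0.108%, 0.0432% and 0.0408%, and miR-750 was 81.2% of this.

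**Figure D3:**
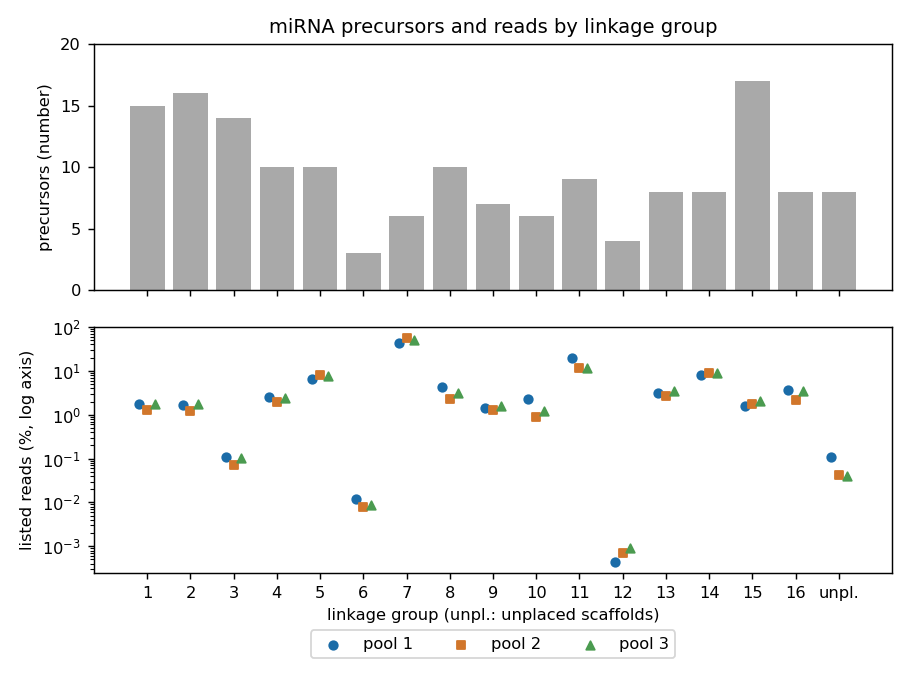
Number of listed precursors on each linkage group (upper bars) and share of listed reads they gave in each pool (lower symbols, percent, log axis), with the unplaced scaffolds last. LG15 has the most precursors, 17, and LG7 the most reads, 43.9% to 56.1%.

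Loci on the same strand with gaps of up to 10000 bases formed 18 clusters of 45 precursors, 12 of them pairs and 6 with 3 or more loci. These counts include Novel_2, Novel_14 and Novel_15, which had 1, 2 and 3 reads in total. Novel_14 and Novel_15 overlap a known precursor of their own cluster, and the strand of Novel_2 differs between 2 fields. Clustered loci held 10.96% ± 0.961 of the reads, or 22.05% ± 1.08 without miR-276, which has no neighbour within that distance. Loci of a cluster can be cut from a shared primary transcript, and a deposited position says only that they are near each other.

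The cluster with the most reads by mean was miR-275 and miR-305 on LG4 (10532413 to 10532735, minus strand), at 2.42%, 1.80% and 2.31% (2.18% ± 0.332). Its members differed 1.79-fold in mean level. On LG5 miR-277, miR-3730 and miR-34 (6958025 to 6962783, plus strand) held 2.33%, 2.29% and 1.57% (2.06% ± 0.428), which was more than the LG4 pair in pool 2 and differed from it in the mean by less than either SD. In it miR-3730 had only 2.10, 3.57 and 2.84 RPML. miR-34, an ageing-related miRNA in Drosophila, had 1028, 2766 and 2818 RPML and was lowest in pool 1, whereas miR-277 was lowest in pool 3. miR-317 lies 22115 bases upstream of miR-277 on the same strand and was outside the distance used.

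The let-7 complex, miR-100, let-7 and miR-125 on LG8 (8436007 to 8437281, plus strand), held 1.94% ± 0.503. The mean levels of its members lay within 3.18-fold of each other, and all were lowest in pool 2. On LG5 the pair miR-279a and miR-996 held 1.74% ± 0.311, with miR-996 at 4091, 5319 and 6589 RPML. Both were lowest in pool 1 and highest in pool 3. On LG2 miR-283, miR-3477 and miR-12, with the newly predicted Novel_15, held 1.12% ± 0.271.

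miR-3477 had 2212, 2055 and 2815 RPML and miR-12 had 3086, 2630 and 3968, so these were highest in pool 3 and miR-283 in pool 1. On LG15 the pair miR-306 and miR-79 held 0.859% ± 0.138, with miR-79 at 298, 313 and 335 RPML, 26.2-fold below miR-306.

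The cluster with the most loci was that of miR-3791, miR-279b, miR-9c, miR-2944 and miR-318 on LG15 (1394890 to 1395636, minus strand). All 5 were lowest in pool 1, except that miR-2944 was lowest in pool 3 under TMM or DESeq2 scaling. Of all 92 miRNAs at a mean of 10 RPML or more, 37 were lowest in pool 1. miR-318 in pool 1 was 1.38 on the log2 scale below its mean of pools 2 and 3. The mean levels of the 5 spanned 64.2-fold. miR-3791 had 1248, 2242 and 2448 RPML, miR-279b 1398, 2190 and 2018, and miR-2944 867, 1004 and 885. With all pools only miR-318 of the 5 varied 2-fold (2.63-fold), and without pool 1 none did.

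Other clusters joined loci of very unequal level. On LG15 miR-252a had 4001, 3919 and 4280 RPML, miR-252b 233, 140 and 120, and miR-6057 2.51, 3.44 and 3.14. The pair miR-750 and miR-1175 was 240-fold apart on an unplaced scaffold, and miR-92a and miR-92c on LG15 were 250-fold apart. On LG2 miR-3715, at 461, 244 and 327 RPML, was 6.59-fold above Novel_10, and both were highest in pool 1. Of the other clusters, miR-3718c and miR-3718a, miR-193 and miR-2788, miR-6038 and miR-210, miR-6040 and mir-6000a, miR-6045 and miR-9864, miR-6065 and Novel_2, and Novel_14, miR-9871 and miR-33, none held more than 0.0161% of the reads.

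**Figure D4:**
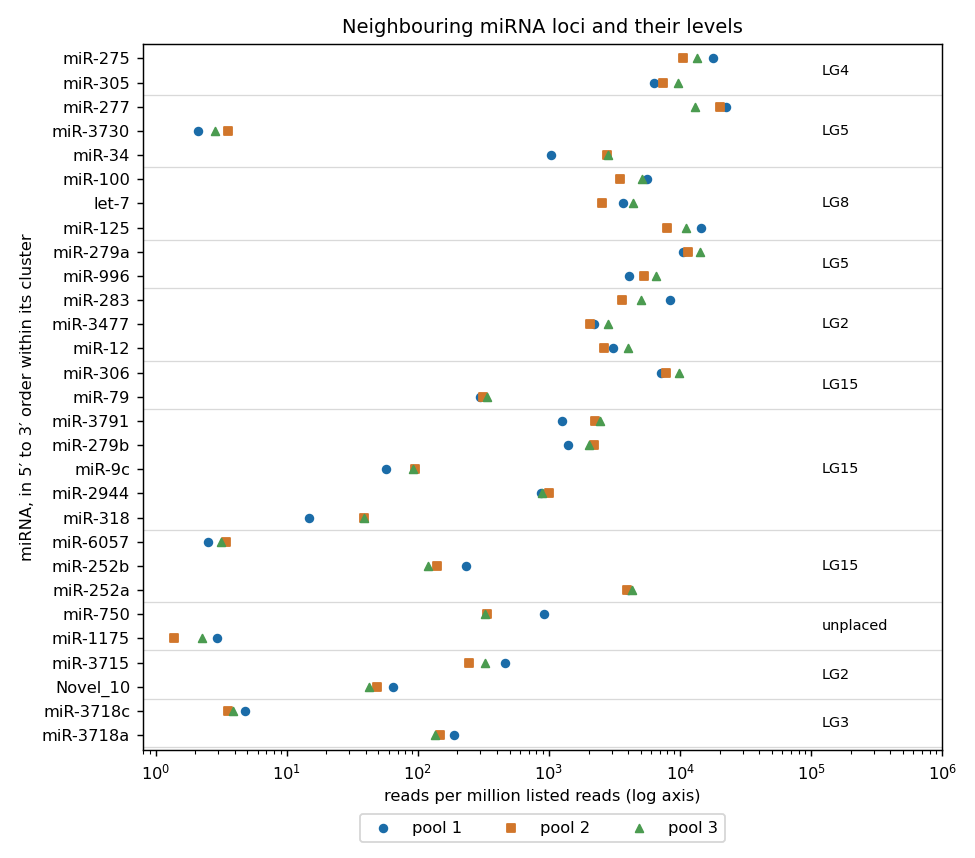
Levels of miRNAs in the 11 clusters with the most reads, in RPML (log axis), with the linkage group at the right. Symbols are the 3 pools, members run 5′ to 3′ within a cluster, and Novel_15, with 3 reads, is not drawn. Mean levels over pools lie within 3.18-fold for the let-7 complex and 6494-fold apart for miR-277 and miR-3730.

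Of the loci grouped for this comparison, not all pairs lay near each other on the same strand. How far apart they lie in other insects was not examined here. miR-1 and miR-133 lie on opposite strands of LG16, 1124235 bases apart. On LG16 too, miR-10 and miR-993 lie 78169 bases apart on opposite strands, and miR-993 and miR-iab-4 839128 bases apart. miR-71 and miR-2b are 1146 bases apart on opposite strands of LG1, with 268, 170 and 266 RPML against 2.31, 3.16 and 3.74.

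Precursors that overlap on opposite strands occurred 4 times, and 1 strand led in every pool of each. miR-3791 had 5956, 16316 and 16358 reads, against 72, 158 and 126 for miR-3478 on the other strand. miR-79 had 1422, 2281 and 2237 reads, against 0, 2 and 0 for miR-9b. miR-6047a had 105, 242 and 127 reads, against 15, 13 and 21 for miR-6047b. For the miR-6000 loci the strands were closer, with 78, 146 and 113 reads of miR-6000b, against 32, 80 and 90 for miR-6000a-5p.

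By the gene bodies in the RNA-seq table, 64 precursors overlapped a protein-coding gene on the same strand, 7 an lncRNA gene, 21 a gene on the opposite strand only and 67 no gene. The overlap was of the whole precursor except for Novel_1 on the same strand and miR-3770 on the opposite strand. Whether a precursor lies in an exon or an intron was not analysed here. The 67 outside genes, miR-8 and bantam among them, held 30.5% ± 4.96 of the reads. The 21 opposite a gene held 53.1% ± 5.98, and 6.04% ± 1.43 without miR-276, which lies within LOC725329 on the opposite strand. Precursors that overlapped protein-coding genes on the same strand held 11.4% ± 0.610, and 23.1% ± 3.38 without miR-276.

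Several hosts match those known in Drosophila. miR-33 lies in a gene for a sterol regulatory element-binding protein (LOC413422) at 211, 201 and 199 FPKM, while miR-33 had 59.3, 96.1 and 131 RPML. miR-11 lies in an E2F transcription factor gene (LOC412770) at 4.64, 4.36 and 5.36 FPKM, with 4008, 2841 and 3889 RPML of miR-11. Between miR-33 and miR-11, the more abundant host carried the less abundant miRNA. Over the 33 pairs given below, all with protein-coding hosts, levels of host and miRNA had a weak positive correlation (Pearson 0.257). miR-12, miR-283 and miR-3477 lie in a gene annotated as thyroid receptor-interacting protein 11 (LOC411348), at 51.4, 58.1 and 52.2 FPKM.

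miR-989 lies in LOC726461, annotated as SH3 and multiple ankyrin repeat domains protein 3-like, at 19.8, 36.7 and 39.9 FPKM, and both miRNA and host were lowest in pool 1. miR-317, miR-277 and miR-34 share a host annotated as an RNA polymerase subunit (LOC102655904) that was even at 33.8, 33.9 and 35.4 FPKM, while miR-34 differed 2.74-fold. miR-275 and miR-305 lie in the lncRNA gene LOC102655676, at 8.71, 5.89 and 5.92 FPKM, and miR-10 in the lncRNA gene LOC107965722, at 7.06, 9.61 and 11.01 FPKM.

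The correlations cover 33 pairs of a miRNA and a same-strand protein-coding host, from 24 hosts. Mean levels in these pairs were no lower than 10.3 RPML for the miRNA and 1.09 FPKM for the host. Pairs with a rarer host were not among them, such as miR-2796, whose host stood at 0.415 FPKM. The lncRNA hosts, those of miR-275, miR-305 and miR-10 included, were not among them either. Over the 33 pairs, log2 levels had a Pearson correlation of 0.257 and a Spearman correlation of 0.275. The difference of pool 1 from the mean of the other two had correlations of -0.103 and -0.0835. Pairs within a host share its value, the 2 assays come from different libraries, and these are descriptions across miRNAs. A miRNA gene with identical coordinates was listed in the RNA-seq table for 110 of the 147 known precursors. Mir276 there stood at 46.8 FPKM and bantam at 12.7 FPKM, but FPKM did not follow the miRNA level over the 110 loci (Spearman correlation -0.0448). Mir3759 had the mean FPKM of 617051, with 34.2 RPML of its miRNA.

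The order of the 164 miRNAs by level was similar across pools. Across miRNAs, which are not independent replicates, log2 levels had Pearson correlations of 0.979 for pools 1 and 2, 0.983 for pools 1 and 3 and 0.995 for pools 2 and 3. Spearman correlations were 0.947, 0.962 and 0.981. For miRNAs at a mean of 10 RPML or more the Pearson correlations were 0.954, 0.960 and 0.995. Among the 92 miRNAs at 10 RPML or more, 21 were at least 2-fold apart between pools 1 and 2, 19 between pools 1 and 3, and 3 between pools 2 and 3. The median absolute log2 difference was 0.59, 0.45 and 0.27 for these pairs.

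The range over pools reached 2-fold for 27 of the 92 miRNAs (29.3%), 26 known and 1 newly predicted, and the median range was 1.63-fold. Pool 1 was the highest or the lowest in 26 of the 27. Among all 92, pool 1 was the highest in 40 and the lowest in 37, so this place was common for it. Of the 27 it was highest in 14 and lowest in 12. It was at least 2-fold above both other pools for 8 miRNAs and 2-fold below both for 6. Without pool 1 the count with a 2-fold range was 3. The lists held 2 of 12 ovary miRNAs, 2 of 2 muscle, 4 of 4 neuronal, 2 of 3 gut and fat body and 3 of 10 sensory and epithelial miRNAs among these, to be read against 29.3% of all.

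Those higher in pool 1 included Novel_13, a newly predicted miRNA with reads in pool 1 alone. Of the known ones miR-315, an activator of Wingless signalling in Drosophila, had the widest range, at 44.0, 1.65 and 4.04 RPML (26.7-fold). miR-6052 had 22.4, 4.53 and 4.04 RPML and miR-2765-5p 167, 44.2 and 67.6. miR-6001-3p had 1330, 379 and 793 RPML, which is a 3.51-fold range, and miR-263a, given above, had one of 3.07-fold. These 5 known miRNAs were lowest in pool 2 or in pool 3, and highest in pool 1.

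Lower in pool 1 was miR-3783, at 8.80, 109 and 93.5 RPML (12.4-fold). miR-929 had 22.8, 82.7 and 76.5 RPML, and miR-124 17.0, 52.6 and 80.2, a 4.73-fold range. In miR-3783 and miR-929 pools 2 and 3 were close to each other and pool 1 lay apart. miR-133 had a 3.69-fold range between pools 3 and 2. Counting TMM, DESeq2 size factors, the deposited RPM and totals without miR-276, these 9 miRNAs kept a range of at least 2-fold with the same pools at the ends.

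Read against all other listed reads, 92 of 125 miRNAs (73.6%) passed a chi-square test of homogeneity over libraries at an adjusted p of 0.05 (Benjamini-Hochberg). That test holds counting error only and at this depth passed small differences: 86 of the 92 miRNAs at 10 RPML or more passed, and 27 of the 33 that did not pass lay below that level. miR-92a was the most abundant that did not, with 420, 617 and 612 reads and an adjusted p of 0.448.

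Beyond counting error, pools spread by a biological coefficient of variation (BCV, a relative SD) that was estimated with edgeR over 115 miRNAs. It was 0.362, and 0.194 without pool 1, against 0.383 without pool 2 and 0.397 without pool 3. Single miRNAs with the highest estimates were miR-315 at 0.860, miR-3783 at 0.673, miR-6052 at 0.60 and miR-124 at 0.504.

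The 12 newly predicted miRNAs had 669, 417 and 286 reads in all. Novel_10 was the only one found in every pool, with 310, 357 and 284 reads, or 65.0, 49.1 and 42.5 RPML. It lies on LG2, 82 bases from mir-3715 on the same strand. Of 2 hairpins deposited for it at this position, the first, printed above, folded at -24.2 kcal/mol, with 19 of the 24 bases of the mature strand paired.

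The other 11 had reads in 1 pool only. Novel_13, on an unplaced scaffold, had 305 reads in pool 1 and 0 in pools 2 and 3, so it was at least 142-fold higher in pool 1 than the limit of 3 reads in the others. Its hairpin folded at only -10.0 kcal/mol and 72.7% of the mature bases were G or C. Novel_1 had 49 reads in pool 1 alone.

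Novel_4, on LG11, had 25 reads in pool 2 alone, and its hairpin folded at -31.4 kcal/mol with 21 of 22 mature bases paired. Novel_8 on LG12 and Novel_7 on LG14 had 14 and 10 reads, also in pool 2 alone. They share the seed ACGCGGA and differ by G10A and A11G, where positions are counted from 1 at the 5′ end and the base of Novel_8 comes first. Of the 12, 9 had under 30 reads, 9 were 3p strands and 3 began with U. Novel_15 overlaps mir-283 by 21 bases and Novel_14 overlaps mir-9871 by 78 on the same strand, and for Novel_17 and Novel_2 the table gives different strands in 2 of its fields.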

How the data were processed

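Small RNA libraries were made with the NEBNext Multiplex Small RNA kit, per the labels' protocols. Tools named in the submitters' processing notes are HTSeq 0.6.1, TopHat2 2.0.9, Bowtie2 2.0.6 and Bowtie (no version), with no step stated for any. Positions are on a build not given in the sources used here. For each miRNA and library the authors deposited unscaled read counts beside RPM values. The deposited RPM divides by larger totals (6137629, 8112823 and 7539464 reads) than the listed reads. Host and marker values are the authors' deposited FPKM from the RNA-seq libraries. Positions and names are those of the deposited tables.

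From the counts, levels per 1000000 listed reads (RPML), Wilson intervals (95%), chi-square tests with every expected count at least 5 (scipy 1.17.1, Benjamini-Hochberg), dispersions (edgeR 4.0.16, intercept only, TMM, filterByExpr) and DESeq2 1.42.0 size factors were computed. The test of shares and the dispersion were tried on simulated data. For the test of shares these data held counting error and set changes, and no other spread between pools. Hairpins were folded with ViennaRNA 2.7.2. Sequences of known miRNAs were not used here, so seeds were compared among the newly predicted ones only.

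Named are the 20 miRNAs of highest mean, listed markers, precursors with both arms, the 10 largest ranges at a mean of 10 or more, new miRNAs with at least 100 reads, and clusters. The members and lists were chosen with earlier results of these data known. The labels give the pools as separate samples, and p-values measure only differences between these libraries. Alternatives were other scalings, filters, gaps and leaving out each pool.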

Additional observations from a re-analysis of the deposited data

How the results depend on the processing

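With the library totals behind the deposited RPM, the share of miR-276 was 43.0% and that of the first 10 72.9%, and the levels of 4 of the 20 most abundant miRNAs moved by more than 1 SD (430410 RPM for miR-276). TMM scaling moved none of the 20 by more than 1 SD. The mean level of miR-133 was 4906 RPML without pool 3, against 8137 with all pools, and that of miR-263a 8396 without pool 1, against 12717. The 3p share without miR-276, an alternative chosen after the data were seen, was 76.0%. With every expected count at least 20, 1 arm ratio differed between libraries, and 1 to 2 when a pool was left out. The count of miRNAs with a 2-fold range was 12 at a mean of 100 RPML or more, and 3 to 21 when a pool was left out, the 3 being without pool 1. It was 27 with TMM, 26 with DESeq2 size factors, 26 with the deposited RPM and 33 without miR-276 in the totals (a choice made after the data were seen), of which 24, 24, 24 and 25 were among the 27. Of the 27, the numbers highest in pools 1, 2 and 3 were 14, 4 and 9, against 16, 7 and 4 with TMM, 14, 7 and 5 with DESeq2 size factors, 12, 6 and 8 with the deposited RPM and 13, 13 and 7 without miR-276. The median log2 ratio of pool 2 over pool 3 was -0.22 with listed reads, 0.06 with TMM and -0.04 with DESeq2 size factors, so small differences between pools depend on the scaling. miR-283, miR-33, miR-193, miR-279c and miR-6000a-5p fell below 2-fold under at least 1 scaling. The BCV was 0.194 to 0.397 when a pool was left out and 0.472 without the filter on low counts. Clusters numbered 16 with gaps of up to 3000 bases and 19 with 50000. The seed families of known miRNAs were not run. No paired analysis was possible because all 3 libraries belong to 1 group, and the groups that share their numbers are other kinds of library, set beside them by pool number as a description only. Levels below about 1 RPML rest on a few reads and are limited by depth.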
